A study of Mus musculus with 6 samples.

Results

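The genes described here are 8 non-collagen genes of cartilage, namely the transcription factor genes *Sox9*, *Sox5* and *Sox6* and the matrix genes *Acan*, *Comp*, *Chad*, *Matn3* and *Matn1*. They were taken by symbol from the 23284 genes listed for each sample, and all 8 were found. They were chosen by their FPKM (fragments per kilobase of transcript, scaled to the mapped reads of the sample) in all 6 samples, with attention to day 14 replicate 2. Their own values are therefore given as a description without p-values.

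The samples were osteoblasts (OBs) that had been sorted as ECFP+ cells from bone formed under the skin of male *Col2.3*-ECFP mice, which were 12 to 16 weeks old according to the methods. In all samples the implant was a collagen sponge carrying 2.5 μg of BMP-2, and a 2.3-kb fragment of the *Col1a1* promoter drove the cyan fluorescent protein that defined an OB. CD45+ blood cells had been gated out. Day 10 (n = 3) came after 1 collagenase digestion and day 14 (n = 3) after 2, so the day and the number of digestions cannot be told apart. By title all 3 later samples are day 14, although the description of replicate 2 gives day 15 and that of replicate 3 gives day 16. The replicates are labelled as biological, but the labels give no animal or run for any sample, and the tests below measure the spread between these samples.

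Cartilage is a hydrated matrix in which collagen II fibrils hold large aggregates of aggrecan, a proteoglycan whose chondroitin sulfate chains bind water. Smaller proteins such as COMP, chondroadherin and the matrilins bridge collagen, proteoglycan and cell surface. SOX9 is the master regulator of chondrocyte fate, and the related proteins SOX5 and SOX6, which lack a transactivation domain, bind with it at enhancers of genes such as *Col2a1* and *Acan*. Ectopic bone induced by BMP-2 forms largely through a cartilage template, whereas the *Col2.3* promoter fragment is active in cells of the OB lineage.

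The depth was estimated at 4509384 to 7726403 mapped reads per sample from the steps between low FPKM values, and 3 reads on a transcript of 1 kb corresponded to 0.388 to 0.665 FPKM. Day 14 replicate 2 had 5910091 estimated reads and the fewest genes above 0, with 16646 against 17630 to 19698 in the other 5 samples. All 7 OB markers examined were above 0 in every sample, with *Col1a1* between 14151 and 34157 FPKM. Between the days, 3 of 19526 genes tested (0.0154%) had an adjusted p under 0.05 by limma with Benjamini-Hochberg adjustment, and 748 (3.83%) differed by over 2-fold with an unadjusted p under 0.05.

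*Comp*, which encodes cartilage oligomeric matrix protein, a pentameric thrombospondin that binds collagen, was the most abundant of the 8 genes in each of the 6 samples. Its FPKM was 767, 640.2 and 359 in day 10 replicates 1, 2 and 3, and 118, 1383 and 99.8 in day 14 replicates 1, 2 and 3. Replicate 2 of day 14 thus lay above all 3 samples of day 10, and the other 2 samples of day 14 lay below them. The day means were 588 ± 209 and 534 ± 736 FPKM (SD, n = 3 each). Among all genes listed in a sample, *Comp* had rank 52, 66 and 138 on day 10 and rank 497, 32 and 643 on day 14.

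*Acan* encodes aggrecan itself, the core protein of the proteoglycan aggregates. It measured 25.9, 20.8 and 20.3 FPKM on day 10 (22.3 ± 3.07, SD, n = 3), then 2.39, 45.8 and 3.28 FPKM on day 14 (17.1 ± 24.8, SD, n = 3). Its highest sample was again day 14 replicate 2, at 2.05 times the mean of day 10, and 19.2-fold above its lowest. These values rest on an estimated 76.9 reads in day 14 replicate 1, 164 reads in replicate 3 and 1934 reads in replicate 2.

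*Chad*, the gene of chondroadherin, a leucine-rich repeat protein that binds collagen II and integrins, had the widest range of the 7 genes that were above 0 in every sample. Day 10 gave 20.8, 17.6 and 10.7 FPKM and day 14 gave 0.756, 109 and 4.89 FPKM, so that the highest sample exceeded the lowest 144-fold. Day 14 replicate 2 stood at 6.66 times the day 10 mean, a larger step than for *Comp* (2.35 times) or *Acan* (2.05 times). The lowest value corresponds to an estimated 5.03 reads. In bulk samples such as these, fewer cells of a type and less RNA per cell cannot be told apart.

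The other matrix genes of the set were the matrilins, small adaptor proteins that form filaments between collagen and proteoglycan. *Matn3* was at 7.12, 6.80 and 8.82 FPKM on day 10, then 4.67, 12.4 and 10.9 FPKM on day 14, with overlapping days and a range of 2.66-fold. Here 2 samples of day 14, replicates 2 and 3, lay above every sample of day 10. *Matn1*, the classical matrilin of mature cartilage, was listed at 0 in 3 of 6 samples, and its other values of 0.455 and 0.101 FPKM on day 10 and 0.376 FPKM in day 14 replicate 2 correspond to an estimated 3.98, 0.988 and 3.99 reads. *Matn1* was thus near the limit of what this depth can show in every sample, and a difference between days was not detectable.

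**Figure D1:**
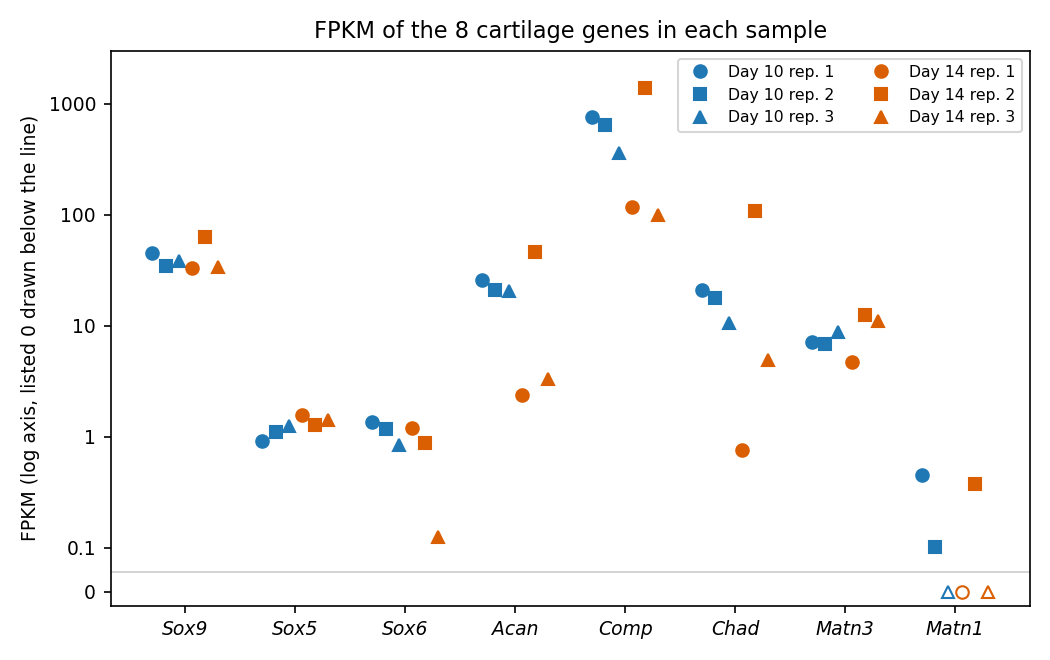
FPKM of each of the 8 genes (x axis) in each sample on a log y axis, with day 10 in blue, day 14 in orange, a marker shape for each replicate and values of 0 drawn as open symbols below the grey line. Day 14 replicate 2 (orange squares) is the highest sample for *Sox9*, *Acan*, *Comp*, *Chad* and *Matn3*, while the other day 14 samples lie below all day 10 samples for *Sox9*, *Acan*, *Comp* and *Chad*.

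The *Sox* genes differed among themselves. *Sox9* was at 45.1, 34.3 and 38.0 FPKM on day 10, then 32.9, 62.7 and 33.7 FPKM on day 14, with means of 39.1 ± 5.50 and 43.1 ± 17.0 FPKM. Its highest sample, day 14 replicate 2, was 1.91 times its lowest, and without that sample the days would not overlap, by the narrow gap between 33.7 and 34.3 FPKM. *Sox9* was the second most abundant of the 8 genes in 5 of 6 samples. The exception was day 14 replicate 2, where *Chad* exceeded it.

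*Sox5* measured 0.912, 1.10 and 1.24 FPKM on day 10 and 1.57, 1.27 and 1.43 FPKM on day 14. It was the only 1 of the 8 whose days did not overlap, with every day 14 sample above every day 10 sample, a pattern of 7.59% of all genes tested. In the opposite direction the count was 0 of the 8, beside 6.67% of all genes tested. It was also the only 1 of the 8 whose value in day 14 replicate 2 lay below both other day 14 samples. The values of *Sox5* rest on an estimated 31.2 to 70.1 reads per sample. Of the 75-base windows along its exons, 8.61% also lie in exons of the antisense transcript *Sox5os1*, and a library kit that does not mark strand cannot separate these reads.

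*Sox6* was at 1.35, 1.17 and 0.849 FPKM on day 10, then 1.20, 0.877 and 0.126 FPKM on day 14. Its low sample was day 14 replicate 3, with an estimated 7.43 reads against 43.9 to 55.5 reads in the other 5 samples. Replicate 2 of day 14, far above the other day 14 samples for *Acan*, *Comp* and *Chad*, was not set apart for *Sox6*. In levels, *Sox9* exceeded its partners in every sample, since *Sox5* was 0.0202 to 0.0477 of *Sox9* and *Sox6* was 0.00374 to 0.0365 of it in FPKM.

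To show DNA upstream of annotated starts of these genes, the 250 bases before each start were read from the RefSeq table of promoter windows (GRCm38.p6). These are 11 windows for 6 of the 8 genes. *Sox9* and *Comp* have no window there. The starts are those of RefSeq, which for *Acan*, *Sox5* and *Sox6* differ from the GENCODE gene bounds given further on. The *Sox5* window lies within those bounds, as do all *Sox6* windows after the first, so these belong to internal starts. The windows were searched on both strands for ACAAAG and ACAATG, the hexamers that SOX proteins prefer, and on the gene's strand for TATAAA. Below are the genes with a wide range of FPKM (*Acan* and *Chad*) beside those with a narrow range (*Matn3* and *Sox5*), each written 5′ to 3′ on the strand of the gene, with matches in capitals. They are *Acan* at chr7:79052976-79053225 (+), *Chad* at chr11:94564797-94565046 (+), *Matn3* at chr12:8947679-8947928 (+) and *Sox5* at chr6:143947107-143947356 (−).
Acan: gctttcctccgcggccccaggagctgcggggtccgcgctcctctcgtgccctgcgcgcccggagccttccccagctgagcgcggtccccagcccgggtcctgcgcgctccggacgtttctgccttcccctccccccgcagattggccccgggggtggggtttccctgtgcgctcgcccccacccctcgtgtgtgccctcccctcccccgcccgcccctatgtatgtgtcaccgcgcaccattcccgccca
Chad: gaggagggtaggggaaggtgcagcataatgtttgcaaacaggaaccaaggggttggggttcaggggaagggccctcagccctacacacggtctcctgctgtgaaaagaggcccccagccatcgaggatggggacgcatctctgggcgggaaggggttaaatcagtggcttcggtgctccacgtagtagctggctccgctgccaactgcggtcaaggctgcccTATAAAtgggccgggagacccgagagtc
Matn3: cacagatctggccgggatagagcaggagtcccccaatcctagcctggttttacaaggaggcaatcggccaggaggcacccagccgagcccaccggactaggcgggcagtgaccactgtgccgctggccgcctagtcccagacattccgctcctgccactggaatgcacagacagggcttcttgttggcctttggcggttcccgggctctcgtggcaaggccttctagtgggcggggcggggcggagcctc
Sox5: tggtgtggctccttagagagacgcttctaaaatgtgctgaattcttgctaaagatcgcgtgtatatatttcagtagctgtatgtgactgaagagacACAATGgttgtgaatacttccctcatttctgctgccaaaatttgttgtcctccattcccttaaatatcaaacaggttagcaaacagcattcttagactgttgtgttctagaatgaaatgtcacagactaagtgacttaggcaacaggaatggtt
Among these windows, that of *Acan* has the highest GC content, at 74.4%, against a median of 52.4% over 32851 windows of the same length, and has no match. *Chad* has TATAAA beginning 28 bases before the start, a match found in 7.59% of all windows. *Sox5* has ACAATG beginning 154 bases before the start, and either SOX hexamer is found in 25.2% of all windows. *Sox6* has 6 windows, of which 5 hold 1 or more of these hexamers. The *Matn3* window, at 65.2% GC, has no match, nor has that of *Matn1*. These are matches of letters, not sites, and nothing follows from them about the factors.

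In the annotation (GENCODE vM21, mm10), *Acan* lies at chr7:79053483-79115099 (+), *Comp* at chr8:70373558-70382066 (+), *Sox9* at chr11:112782224-112787760 (+), *Sox5* at chr6:143828425-144781977 (−), *Sox6* at chr7:115470872-116038796 (−), *Matn3* at chr12:8947929-8972028 (+) and *Matn1* at chr4:130944385-130955475 (+). *Chad*, at chr11:94565047-94569127 (+), lies within *Acsf2* on the opposite strand but shares 0 exon bases with it. For the 7 genes other than *Sox5*, 0 windows of 75 exon bases lie in exons of another gene. *Sox5* and *Sox6* have 14 and 16 annotated transcripts, so an FPKM per gene depends for them on how reads were divided among isoforms.

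Between the days, the differences in log2(FPKM + 0.1), day 14 minus day 10, ran from −1.61 (SE 0.94) for *Acan* to 0.37 (SE 0.35) for *Sox5*. *Comp* was at −1.14 (SE 0.89), *Chad* at −1.03 (SE 1.43), *Sox6* at −0.87 (SE 0.68) and *Matn1* at −0.41 (SE 0.97). *Sox9* was at 0.08 (SE 0.26) and *Matn3* at 0.19 (SE 0.35). The differences of *Chad*, *Matn1*, *Sox9* and *Matn3* were thus smaller than their standard errors. The median over the 8 genes was −0.64 beside −0.04 over all genes tested. *Acan*, *Comp* and *Chad* were over 2-fold lower on day 14 on this scale, as were 8.39% of all genes tested, and 0 of the 8 were over 2-fold higher, beside 5.25% of all genes tested. For *Chad*, the mean FPKM of day 14 was nonetheless 2.33 times that of day 10, because 1 sample decides the mean while the log scale weighs the 3 samples alike.

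Without day 14 replicate 2, the difference between days was larger for *Acan*, *Comp* and *Chad*, and the median of the 8 genes was −1.16. *Acan* was then at −2.94 (SE 0.23), *Comp* at −2.37 (SE 0.32) and *Chad* at −2.94 (SE 0.66), each with a smaller standard error than over all 6 samples. Without day 14 replicate 1 instead, the median was 0.10 and *Chad* was at 0.56, and without replicate 3 the median was −0.06. In FPKM, the mean of day 10 exceeded that of day 14 replicates 1 and 3 by 7.88-fold for *Acan*, 5.41-fold for *Comp* and 5.78-fold for *Chad*. Without replicate 2, *Sox6* was at −1.15 (SE 0.76), *Sox9* at −0.22 (SE 0.18), *Matn3* at −0.07 (SE 0.35), *Matn1* at −1.16 (SE 1.01) and *Sox5* at 0.44 (SE 0.40). *Acan*, *Comp*, *Chad* and *Sox9* had both remaining day 14 samples below every day 10 sample, a pattern of 13.2% of all genes, and *Sox5* alone had both above, a pattern of 15.3%. Since day 14 replicate 2 was singled out when the genes were chosen, leaving it out narrows the spread of genes extreme in it. Nothing is read from these differences, their standard errors or the counts.

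**Figure D2:**
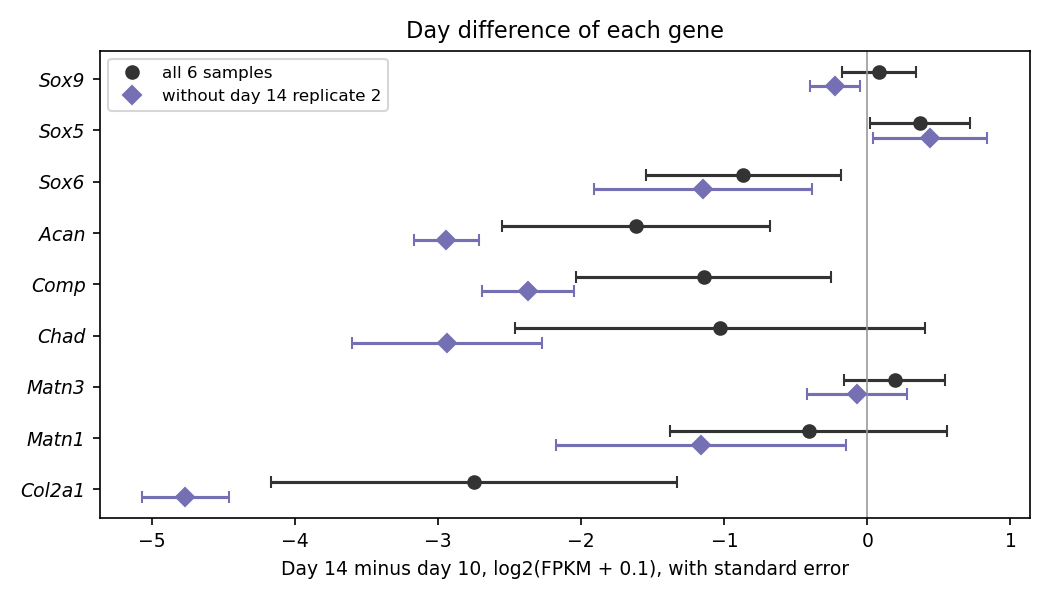
Day 14 minus day 10 in log2(FPKM + 0.1) (x axis) for the 8 genes and *Col2a1*, with bars of 1 standard error, for all 6 samples (black circles) and without day 14 replicate 2 (violet diamonds). Without that sample, *Acan*, *Comp*, *Chad* and *Col2a1* lie between −2.37 and −4.77, while *Sox5*, *Sox9* and *Matn3* stay between −0.22 and 0.44.

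Set against the mean of the other 2 samples of its day, day 14 replicate 2 was higher by 5.72 on the log2 scale for *Chad*, by 3.98 for *Acan* and by 3.67 for *Comp*. For *Matn1* the value was 2.25, on an estimated 3.99 reads against none. *Sox9* (0.91), *Sox6* (0.85) and *Matn3* (0.79) followed, and *Sox5* was at −0.21. The median of the 8 genes was 1.58 beside −0.10 for all genes tested. *Chad*, *Acan*, *Comp* and *Matn1* were over 2-fold above both other day 14 samples on this scale, as were 3.26% of all genes tested. It was the highest of the 6 samples for *Chad*, *Acan*, *Comp*, *Sox9* and *Matn3*, as for 13.6% of all genes tested. Nothing is read from these counts, since the genes were chosen with this sample in view. Together the 8 genes took 0.332% of the summed FPKM of that sample, against 0.0349% and 0.0335% in the other day 14 samples and 0.102% to 0.186% on day 10. *Comp* alone made up 64.8% to 88.7% of this sum. Without *Comp*, the other 7 genes summed to 232 FPKM in day 14 replicate 2, against 43.4 and 54.3 FPKM in the other day 14 samples and 79.9 to 102 FPKM on day 10.

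Markers of other cells were examined beside this sample. The 7 myeloid markers, among them *Lyz2*, summed to 11.5 FPKM in day 14 replicate 2, against 209 and 529 FPKM in the other day 14 samples and 29.3 to 117 FPKM on day 10, and *Adgre1* was at 0 there. The 7 OB markers summed to 38269 FPKM in it, within the day 10 range of 28368 to 54192 FPKM and above 19619 and 15669 FPKM in the other day 14 samples. *Alpl*, the phosphatase of mineralizing cells, was at 1129, 1055 and 809 FPKM on day 10, then 273, 1299.8 and 186 FPKM on day 14, and thus had its highest sample in common with *Acan*, *Comp* and *Chad*. The other 6 OB markers had their highest sample on day 10. Among them *Sp7*, a transcription factor gene required for OBs, was at 73.7, 51.1 and 40.1 FPKM and then 9.79, 27.9 and 4.09 FPKM. *Dlx5* was nearly equal in day 10 replicate 1 (9.88 FPKM) and day 14 replicate 2 (9.84 FPKM). Each of the 7 OB markers was higher in day 14 replicate 2 than in both other day 14 samples. *Dlx5* was at 0.979 and 1.01 FPKM in those samples, and *Ibsp* at 15632 against 3460 and 1293 FPKM. The 4 tendon and ligament markers, in whose tissue *Comp* is also abundant, summed to 52.6 to 115 FPKM on day 10 and 77.8, 144 and 157 FPKM on day 14. Most of this sum was *Tnmd*, the tenomodulin gene, at 57.8, 42.7 and 101 FPKM and then 65.9, 132 and 145 FPKM. The tendon regulator *Scx* was lowest, at 4.12 FPKM, in day 14 replicate 3, where the sum was highest, and *Kera* was at 0.234 to 1.25 FPKM. Of the 6 osteoclast markers, *Ctsk* was at 403 to 425 FPKM on day 10 and 574 to 614 FPKM on day 14 and made up most of their sum of 428 to 654 FPKM. *Acp5* overlapped between the days and was lowest, at 18.3 FPKM, in day 14 replicate 2, where *Dcstamp* was at 0. Endothelial markers summed to 5.38 FPKM or less, Schwann cell markers to 2.91 FPKM or less, muscle markers to 6.61 to 16.8 FPKM and adipocyte markers to 0.652 FPKM or less. The part of these cells, of the later described days and of depth in the differences above was not tested.

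Ratios within a sample show how the genes moved relative to each other. *Col2a1*, which encodes the main collagen of cartilage, was at 373, 321 and 189 FPKM on day 10, then 12.1, 688 and 8.75 FPKM on day 14. The ratio of *Comp* to *Col2a1* was 2.06, 1.99 and 1.90 on day 10 and 2.01 in day 14 replicate 2, while it was 9.75 and 11.4 in day 14 replicates 1 and 3. Across those first 4 samples the level of *Comp* itself ran from 359 to 1383 FPKM. The ratio of *Chad* to *Col2a1* was 0.0557, 0.0548 and 0.0565 on day 10 and 0.0626 in day 14 replicate 1, but 0.158 and 0.559 in day 14 replicates 2 and 3. For *Acan*, the ratio in day 14 replicate 2 (0.0665) was again within the values of day 10 (0.0648 to 0.108), below 0.197 and 0.376 in replicates 1 and 3. The ratio of *Sox9* to *Col2a1* was 0.107 to 0.201 on day 10 and 0.0912 in day 14 replicate 2, against 2.72 and 3.85 in the other samples.

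**Figure D3:**
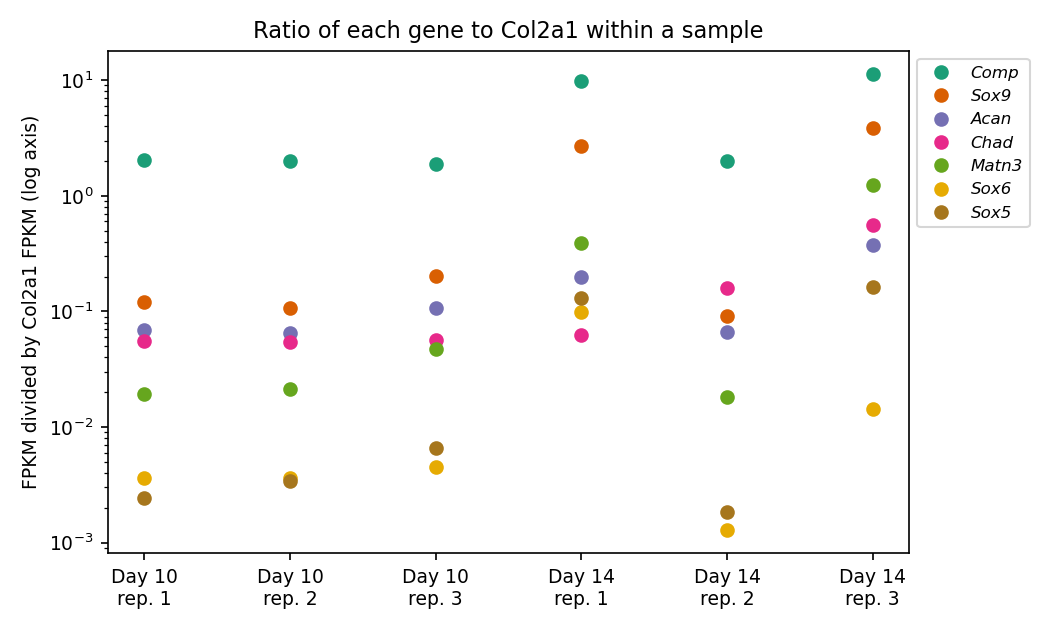
FPKM of 7 of the genes divided by the FPKM of *Col2a1* in the same sample (log y axis), for each of the 6 samples on the x axis. The points of *Comp* lie between 1.90 and 2.06 in the 3 samples of day 10 and in day 14 replicate 2, and at 9.75 and 11.4 in the other day 14 samples.

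Among the 8 genes, *Comp* and *Acan* kept the nearest proportion of the 3 strongly varying genes, with 29.6, 30.8 and 17.7 times more *Comp* on day 10 and 49.4, 30.2 and 30.4 times more on day 14 in FPKM. The ratio of *Acan* to *Sox9* separated the samples, at 0.573, 0.607 and 0.535 on day 10 and 0.730 in day 14 replicate 2, against 0.0726 and 0.0976 in day 14 replicates 1 and 3. Pairs were also compared by the root mean square difference of centered log2 values over the 6 samples. *Sox9* and *Matn3* were the closest pair (0.382), followed by *Acan* and *Comp* (0.415) and by *Sox5* and *Sox9* (0.459). The measure is not scaled to the range of each gene, so genes with a narrow range lie close even where their patterns differ. In day 14 replicate 2, *Sox9* was at its highest, while *Sox5* lay below both other day 14 samples. The most distant pair was *Sox5* and *Chad* (2.27). In the order of levels, *Acan* and *Chad* stood above *Matn3* in all 3 samples of day 10 and in day 14 replicate 2, and below it in the other 2 samples of day 14. *Sox5*, *Sox6* and *Matn1* were the 3 lowest in 5 samples, and in day 14 replicate 1 *Chad* lay between *Sox6* and *Matn1*.

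By the same measure, the 10 genes closest to the mean profile of the 8, among 11156 genes with a mean of at least 1 FPKM, included *Irx3* (0.205), *Chadl* (0.210), *Gdf15* (0.224), *Wnt5b* (0.264), *Omd* (0.269), *Eps8l2* (0.299), *Fads2* (0.311), *Ddit4l* (0.321) and *Phtf2* (0.328). *Chadl*, a chondroadherin-like gene, was at 3.14, 1.82 and 1.44 FPKM on day 10, then 0.880, 4.11 and 0.665 FPKM on day 14. *Omd*, which encodes osteomodulin, a keratan sulfate proteoglycan of bone, was at 152, 150.2 and 85.2 FPKM and then 45.1, 160.1 and 42.3 FPKM. Both were lowest in day 14 replicate 3 and highest in day 14 replicate 2. They were picked for nearness to a mean profile that was itself highest in day 14 replicate 2, so nothing is read from this.

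The collagens of cartilage are the partners of these proteins in the fibril. Of 8 listed, 7 were over 2-fold lower on day 14, beside 8.39% of all genes tested. For 4 of these the unadjusted p was under 0.05, namely *Col9a1* (−2.59), *Col9a3* (−2.81), *Col11a1* (−1.52) and *Col11a2* (−2.18 on the log2 scale), beside 2.04% of all genes tested. By limma, 0 had an adjusted p under 0.05 and 5 an unadjusted one, the latter beside 10.0% of all genes tested. All 4 calls were lost in a fit without the mean-variance trend, and without day 10 replicate 1, day 10 replicate 2, day 14 replicate 1 or day 14 replicate 3. Without day 14 replicate 2, 7 were called, all of them lower, beside 569 of 19674 genes tested that were called lower. The list's median was −2.16, and −3.53 without day 14 replicate 2. In that sample 7 of 8 collagens were over 2-fold above both other day 14 samples, as were *Acan*, *Comp*, *Chad* and 3.26% of all genes tested. Nothing is read from this count or from the calls and median without that sample, since the list was chosen with results of these data known. *Col11a2* was however at 136 FPKM in day 14 replicate 2, below 294 and 292 FPKM in day 10 replicates 1 and 2. *Col10a1*, the collagen of hypertrophic chondrocytes, was at 67.4 FPKM there, against 13.8 to 26.1 FPKM on day 10.

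The other matrix and secreted proteins of cartilage gave a mixed picture. Of 16 genes, 1 was over 2-fold lower with an unadjusted p under 0.05, beside 2.04% of all genes tested. This was *Cnmd* (−3.06), the gene of chondromodulin. The 3 over 2-fold higher were *Prelp* (1.02), *Cilp* (1.43) and *Prg4* (1.38 on the log2 scale), the last of which encodes lubricin, against 1.79% of all genes in that direction. Of the 16, 0 passed the adjusted threshold of limma and 6 had an unadjusted p under 0.05, beside 10.0% of all genes tested. The 4 calls became 1 without the trend, 1 without day 10 replicate 1 and 0 without day 14 replicate 3. They became 6 without day 14 replicate 2, 4 lower and 2 higher, beside 569 lower and 758 higher of 19674 genes tested. The median was 0.41, and 0.04 without day 14 replicate 2. In that sample 5 of the 16 were over 2-fold above both other day 14 samples, beside 3.26% of all genes tested. This list too was chosen with results of these data known, so nothing is read from this count or from the calls without that sample. *Hapln1*, the link protein that fastens aggrecan to hyaluronan, was at 7.20, 3.67 and 4.98 FPKM on day 10, then 1.31, 15.0 and 0.292 FPKM on day 14, with day 14 replicate 2 highest and the other day 14 samples lowest, as for *Acan*. *Fmod*, the fibromodulin gene and the most abundant of the list, was at 864 to 947 FPKM on day 10 and 1134 to 1723 FPKM on day 14.

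Among 12 regulators of chondrocytes, 11 were tested and 2 were over 2-fold lower with an unadjusted p under 0.05. These were *Ihh* (−2.40), the hedgehog ligand of prehypertrophic chondrocytes, and *Pth1r* (−1.21 on the log2 scale), the receptor of parathyroid hormone, which OBs also express, beside 2.04% of all genes tested. Both calls were lost without the trend, and without day 10 replicate 1, day 10 replicate 2, day 14 replicate 1 or day 14 replicate 3. Without day 14 replicate 2, 5 genes of the list were called, 4 lower and 1 higher, beside 569 lower and 758 higher of 19674 genes tested. Since the list was chosen with results of these data known, no conclusion is drawn from these calls. *Nkx3-2* was too low to be tested. The median was −0.32, and −0.87 without day 14 replicate 2. *Fgfr3*, a receptor that restrains chondrocyte growth, was at 14.8 to 18.3 FPKM on day 10 and 3.92, 27.3 and 2.58 FPKM on day 14, once more with replicate 2 above the other samples.

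**Figure D4:**
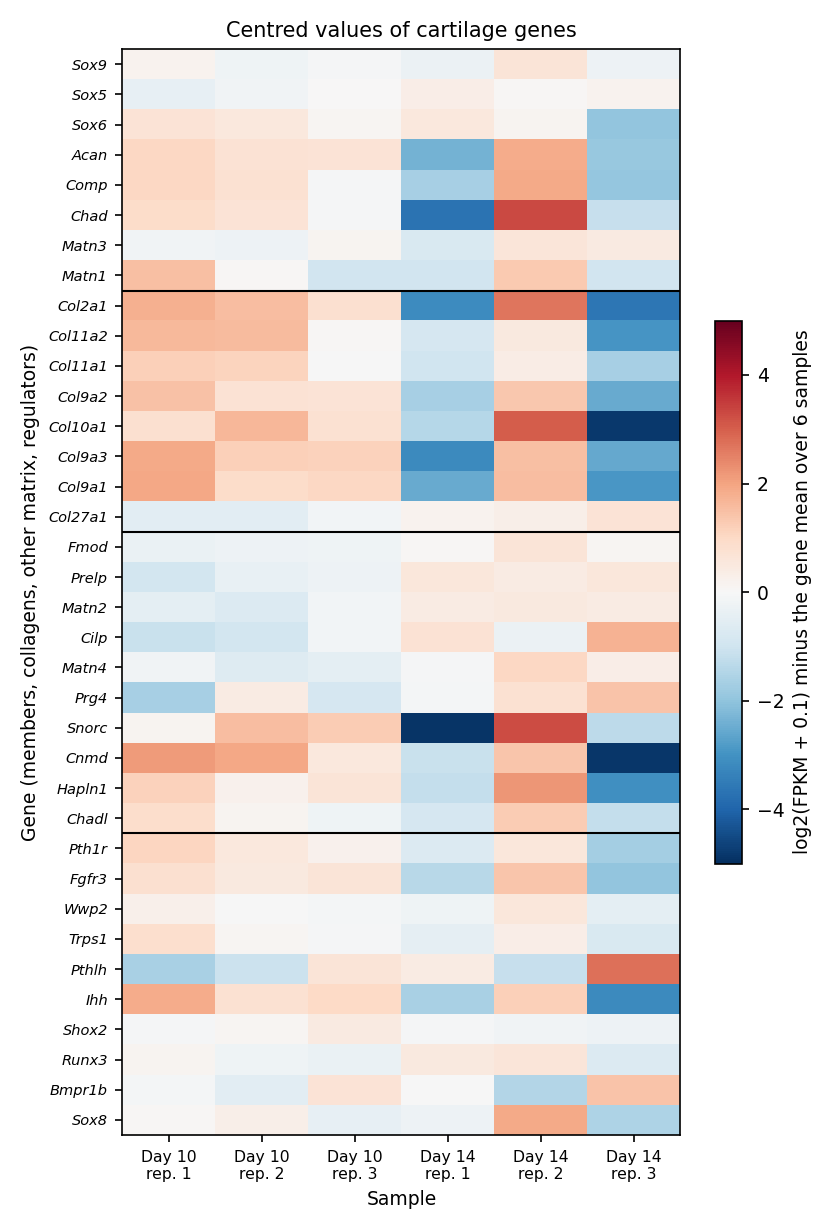
Centered log2(FPKM + 0.1) of the 8 genes, 8 cartilage collagens, 10 other matrix genes and 10 regulators (y axis, groups divided by lines) in the 6 samples (x axis), with red above and blue below the mean of the gene and colors limited at 5 in either direction. Day 14 replicate 2 is red for *Acan*, *Comp*, *Chad* and *Col2a1*, and day 14 replicates 1 and 3 are blue for them.

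The enzymes that build and sulfate the chains carried by aggrecan were examined in the same way. Of 21 tested, 1 was over 2-fold lower with an unadjusted p under 0.05, beside 2.04% of all genes tested. This was the chondroitin sulfotransferase gene *Chst13* (−2.30 on the log2 scale). In day 14 replicate 2, 0 of the 21 were over 2-fold above both other day 14 samples, beside 3.26% of all genes tested. The call of *Chst13* was lost without the trend and without day 10 replicate 1. The median difference was 0.00. The polymerizing factor *Chpf* was at 139 to 158 FPKM on day 10 and 143 to 162 FPKM on day 14. *Ugdh*, which makes the UDP-glucuronate used for the chains, was at 176, 302 and 201 FPKM and then 299, 519.9 and 472 FPKM. Of 11 proteases and inhibitors that act on aggrecan or COMP, 1 was over 2-fold higher with an unadjusted p under 0.05, the inhibitor gene *Timp3* (1.14), beside 1.79% of all genes tested, and the median was 0.55. That call was lost without day 10 replicate 1. *Adamts4* and *Adamts5*, which encode aggrecanases, ranged from 38.6 to 58.8 and from 4.62 to 6.72 FPKM on day 10, and from 61.0 to 87.1 and from 8.39 to 12.5 FPKM on day 14.

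Relatives of the 8 genes in their families were set beside them. Of 26 listed, 18 were tested and 1 was over 2-fold lower with an unadjusted p under 0.05, *Bcan* (−2.17 on the log2 scale), beside 2.04% of all genes tested. It encodes the lectican brevican and was at 22.3, 17.3 and 8.49 FPKM and then 2.62, 6.90 and 1.82 FPKM. Its highest day 14 value was in replicate 2, as for *Acan*, but unlike for *Acan* that value lay below every day 10 sample. *Vcan*, the versican gene, was at 17.2 to 27.0 FPKM on day 10 and 21.8 to 37.3 FPKM on day 14. The matrilins *Matn2* and *Matn4* exceeded *Matn3* in every sample, and *Matn2* was at 50.2 to 72.4 FPKM on day 10 and 106 to 112 FPKM on day 14. *Thbs4*, the thrombospondin nearest to *Comp*, was at 39.1, 33.0 and 68.1 FPKM and then 95.8, 30.0 and 204 FPKM, with day 14 replicate 2 as its lowest sample and not its highest. *Sox8*, of the same group as *Sox9*, was at 0.552 to 0.976 FPKM on day 10 and 0.627, 3.14 and 0.203 FPKM on day 14. The median of the list was 0.32.

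**Figure D5:**
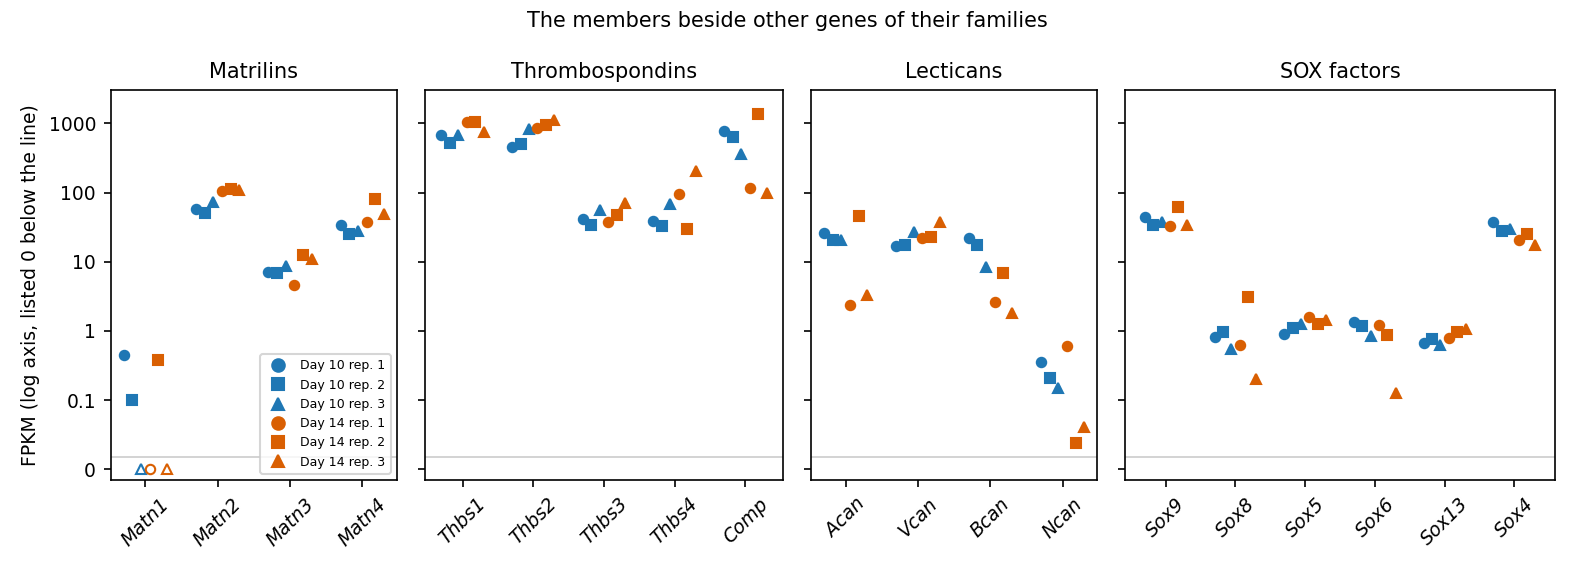
FPKM (log y axis, values of 0 as open symbols below the grey line) of matrilins, thrombospondins with *Comp*, lecticans with *Acan* and SOX factors in the 6 samples, with day 10 in blue and day 14 in orange and a marker shape for each replicate. Day 14 replicate 2 (orange squares) is the highest sample for *Comp* and the lowest for *Thbs4*, and it is the highest for *Acan* while *Vcan* stays between 17.2 and 37.3 FPKM.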

How the data were processed

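RNA-seq was analyzed for OBs of day 10 (n = 3) and day 14 (n = 3), grouped by sample titles. The authors deposited 1 file of FPKM per gene for each sample. Per the submitters' processing notes, the tools were TopHat2 2.0.13, Bowtie2 2.2.3, SAMtools 0.1.19 and Cufflinks 2.2.1 with mm10, and the gene annotation is not given in the sources used here. The library kit amplifies cDNA and does not mark strand. In day 14 replicate 2, 25 symbols that had become dates were restored by position. Depth and reads per gene were estimated from values up to 0.3 FPKM of 1977 genes with 1 transcript of 1500 to 8000 bases and a fragment length of 205 bases, at which 74.5% to 79.2% of values lay within 0.1 of whole reads. The estimates cover counting error only.

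The fit was limma 3.58.1 in R 4.3.3 (eBayes with trend) on log2(FPKM + 0.1), a scale that understates changes of low genes, for genes with a mean above 0.1 FPKM over the samples in the fit. It was tested on simulated data. The 8 genes and all lists were chosen with earlier results of these data known. Named are the 8 genes, up to 5 abundant genes per list and those over 2-fold with an unadjusted p under 0.05, *Col2a1*, the 10 closest profiles (1 of them is not reported here) and marker genes. Other genes (*Hapln1*, *Adamts4*, *Adamts5*, *Vcan*, *Sox8*, *Snorc*, *Epyc*) were added after their values were seen. *Cnmd*, *Adgre1*, *Snorc*, *Mia* and *Bpnt2* were found under older symbols. Replicate numbers occur on both days, so a block fit was run. Deviations of same-numbered samples correlated at 0.0580, −0.00584 and 0.0887, so the numbers were not taken as pairs. Other pseudocounts, filters, scalings, no trend and leaving out each sample were tried.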

Additional observations from a re-analysis of the deposited data

How the results depend on the processing

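The count of genes over 2-fold with an unadjusted p under 0.05, 748 of 19526, was 363 with a pseudocount of 1 and 476 at a mean of at least 1 FPKM, and ran from 440 to 1594 when 1 sample was left out. Of the 1594 called without day 14 replicate 1, 20.1% were higher on day 14, against 46.8% of the 748. The 3 genes with an adjusted p under 0.05 became 3 to 76, the last without day 14 replicate 2. With the replicate block, 2 genes had an adjusted p under 0.05 and 839 were over 2-fold with an unadjusted p under 0.05. Of 3 samples, 2 correlated best with their own number, but these correlations were at most 0.0887, and no pairing is read from them.

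The median of the 8 genes (−0.64) was −0.21 with a pseudocount of 1, −1.08 with 0.01, −1.16 without day 14 replicate 2, −0.06 without replicate 3 and 0.10 without replicate 1. *Chad* turned to 0.56 without day 14 replicate 1. Without day 14 replicate 2, *Sox9* was −0.22 and *Matn3* −0.07, and *Sox9* was −0.01 without day 10 replicate 2. The median excess of day 14 replicate 2, 1.58, was 0.80 with a pseudocount of 1 and 2.40 with 0.01. Of 109 day differences of the single genes, 4 turned sign. *Sox6* and *Matn1* could not be fitted at a mean of at least 1 FPKM, nor *Matn1* without day 10 replicate 1. Without the trend, calls over 2-fold with an unadjusted p under 0.05 went from 4 to 0 for the collagens, 2 to 0 for the regulators, 1 to 0 for the chondroitin enzymes and 4 to 1 for the other matrix genes. Depth limits *Matn1*, *Sox5* and *Sox6*.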

Other observations

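Other cartilage genes did not all have their highest value in day 14 replicate 2. *Snorc*, a small proteoglycan gene of chondrocytes, did have its highest value there. It was at 3.21, 8.58 and 7.08 FPKM on day 10, then 0, 28.5 and 1.11 FPKM on day 14. *Epyc*, the epiphycan gene of growth plate cartilage, was at 0.135, 0.480 and 0.762 FPKM on day 10, then 0.289, 0 and 0 FPKM on day 14. These values lie around or below the 0.388 to 0.665 FPKM of 3 reads on a 1-kb transcript, so depth limits *Epyc* as well. *Pthlh*, the ligand of *Pth1r*, was at 0.626, 0.975 and 3.44 FPKM on day 10, then 2.85, 0.904 and 15.2 FPKM on day 14, with its highest value in replicate 3.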
